A study of Gallus gallus with 6 samples.

Results

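The glycosyltransferases described here build and cap the sugar chains of glycoproteins and glycolipids. They were chosen by name: every row of the gene table whose symbol starts with that of a polypeptide GalNAc-transferase, a core 1 or core 2 enzyme, a galactose, N-acetylglucosamine or N-acetylgalactosamine extending enzyme, a sialyltransferase, a fucosyltransferase, a protein O-glucosyltransferase or an N-glycan branching enzyme. This gave 75 rows with 74 different symbols among the 17108 rows of the table, and the authors tested 58 of them. The tissue was sclerotome, the ventral part of the somite, from wild type chick embryos at embryonic day 3 (Hamburger Hamilton stage 18). Each of the 6 libraries came from a pool of 100 half-sclerotomes from somites 11 to 23 (number 1 being the youngest), with 3 anterior and 3 posterior libraries and no genotype or treatment that differed. The labels do not say whether the pools came from separate embryos, so the authors' p-values may measure technical spread in part.

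Mucin-type O-glycans start when a polypeptide GalNAc-transferase attaches N-acetylgalactosamine to serine or threonine. Core 1 synthase then adds galactose, and the resulting disaccharide is the structure that peanut lectin binds. Sialic acid on that galactose hides it from the lectin. Peanut lectin is known to stain the posterior part of the chick sclerotome, which neural crest cells and motor axons avoid, and leaves the anterior part that they cross largely unstained. Levels are the authors' FPKM (fragment counts scaled by transcript length and library size), so that genes can be set side by side. How the libraries were scaled is not given. With 1 value per group in the table, no spread between libraries and no interval can be given, and whether the libraries of the groups overlapped is unknown. A gene was called when q, the authors' p-value adjusted over all 10529 tested rows, was under 0.05.

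Of the 58 tested transferases, the authors' deposited table has 3 higher in posterior and 1 higher in anterior half-sclerotomes at q under 0.05, which is 6.90% against 7.07% of all tested rows. By direction, the share over all tested rows was 3.57% for posterior and 3.50% for anterior. The share of called transferases thus lay near the background. At q under 0.01, 2 of the 58 were called where all tested rows gave 4.71%, and at q under 0.1, 6 of the 58 against 9.12%. With p readjusted over rows that share no locus, 3 were called and the share over such rows was 7.60%. This setting left out 8 of the 58, GALNT18 among them. MGAT5B, GALNT6 and ST3GAL1 were the posterior genes and GALNT18 was the anterior one. The median log2 ratio of posterior over anterior was 0.03 over tested transferases and 0.00 over all tested rows, and 30 transferases had a ratio above 0 and 28 below. Half-sclerotome identity was distinct in the same table, with UNCX, a homeobox gene of the posterior part, at 1.45 FPKM in anterior against 87.8 FPKM in posterior, and TBX18, a T-box gene of the anterior part, at 32.5 and 3.10 FPKM.

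**Figure D1:**
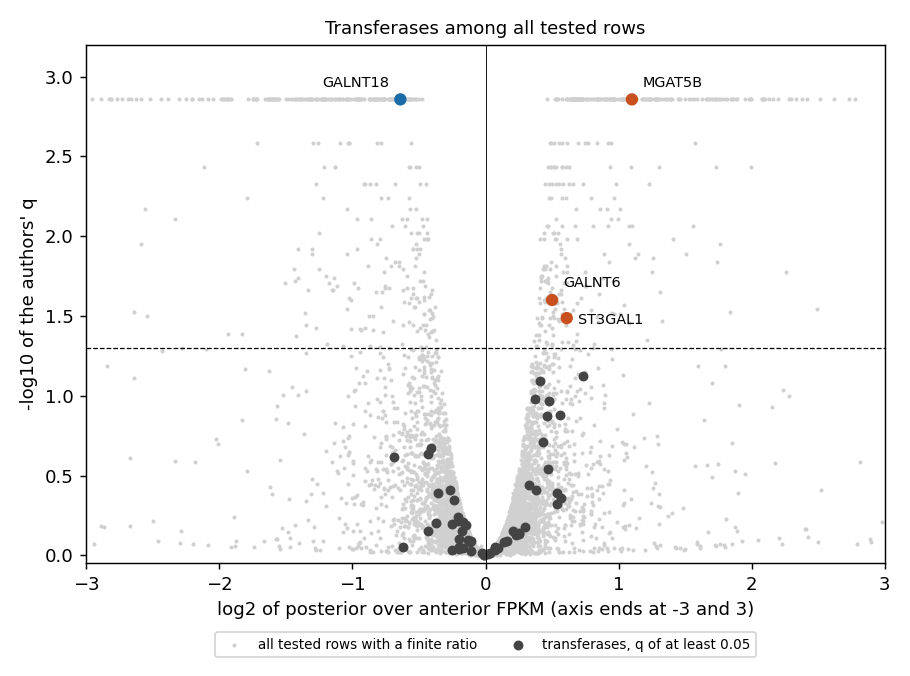
Each point is a row tested by the authors, with the log2 ratio of posterior over anterior FPKM on the x axis and -log10 of the authors' q on the y axis. Grey points are all tested rows with a finite ratio, dark points the transferases, and the dashed line q of 0.05; MGAT5B, GALNT6 and ST3GAL1 (orange) and GALNT18 (blue) are the 4 transferases above it.

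Few differences among the transferases were large. Log2 ratios ran from -0.69 to 1.10, and 6 of the 58 (10.3%) differed by at least 1.5-fold, against 11.3% of all tested rows. A difference of 2-fold was reached by 1 of the 58 transferases, MGAT5B, against 5.46% of all tested rows. In the authors' deposited table, a group of 15 transferases, 25.9% of those tested, had an unadjusted p under 0.05, where the share over all rows was 16.1%. The median absolute log2 ratio was 0.25 for transferases and 0.15 for all tested rows. Transferases were also measured at lower levels, with a median of 11.3 FPKM against 17.9 FPKM. Of 18 transferases with a mean of at least 20 FPKM, the median absolute log2 ratio was 0.10, near the 0.11 of all tested rows at that level, and of the 40 below it was 0.36 against 0.20.

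The GALNT family, grouped here under O-glycan initiation, came as 16 rows, of which 11 were tested. GALNT18 was at 32.7 FPKM in anterior against 21.1 FPKM in posterior half-sclerotomes, 1.55-fold higher in anterior (log2 ratio -0.64, the authors' deposited table gives q = 0.00139). It belongs to the subfamily of GALNT9 and GALNT17 and lies on chromosome 5 from 7717033 to 7962224 of galGal4. An unnamed row with the same locus is listed at 0 in both groups. GALNT6, an initiating enzyme on linkage group LGE22C19W28_E50C23 from 883279 to 902735, went the other way, from 11.6 FPKM in anterior to 16.4 FPKM in posterior (1.41-fold, log2 ratio 0.50, the authors' deposited table gives q = 0.0251). The family thus held a call in each direction among 11 tested, where 7.07% of all tested rows were called in either direction. These are RNA levels, and initiation itself was not measured. GALNT1, a broadly acting member, had the highest level, anterior 87.0 and posterior 78.1 FPKM (the authors' deposited table gives q = 0.646), and made up 40.2% and 39.7% of the summed FPKM of all 16 rows. GALNT18 made up 15.1% of that sum in anterior and 10.7% in posterior. GALNT10, which in human prefers peptides that already carry GalNAc, was at 4.69 and 6.92 FPKM and was not past the threshold (the authors' deposited table gives q = 0.132). The other tested members had log2 ratios from -0.37 to 0.25. They were GALNT2, GALNT5, GALNT7, GALNT11, GALNT12, GALNT13 and GALNT16. GALNT5 shares its locus with ERMN. WBSCR17, a family member now named GALNT17 and outside the name rule, was at 6.15 and 5.82 FPKM (the authors' deposited table gives q = 0.922).

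Core 1 formation needs C1GALT1, which adds the galactose, and C1GALT1C1, its dedicated chaperone Cosmc. C1GALT1 was at 40.9 FPKM in anterior against 40.7 FPKM in posterior (log2 ratio -0.01, the authors' deposited table gives q = 0.991). It lies on chromosome 2 from 24823339 to 24831591. C1GALT1C1, on chromosome 4 from 16343009 to 16344697, was at 16.1 and 13.5 FPKM (log2 ratio -0.25, the authors' deposited table gives q = 0.639). Neither gene of the core 1 step passed the threshold, and both ratios were at or below 0. A p that misses the threshold does not show equal levels.

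Branching of O-glycans by GCNT enzymes was measured at low levels. GCNT1, the core 2 enzyme that competes with sialylation of core 1, was at 0.274 FPKM in anterior against 0.217 FPKM in posterior and was not tested by the authors. GCNT4, another core 2 enzyme, was at 1.71 and 2.49 FPKM (the authors' deposited table gives q = 0.407). GCNT7 was at 2.04 and 1.33 FPKM (the authors' deposited table gives q = 0.889), and it shares its locus with C20H20ORF43, at 70.6 and 69.1 FPKM, so reads of the latter could reach it. GCNT2, which makes the I branch, is listed at 0 in posterior and was at 0.164 FPKM in anterior. GCNT3 is listed at 0 in both groups. No enzyme of this step passed 3 FPKM in either group.

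**Figure D2:**
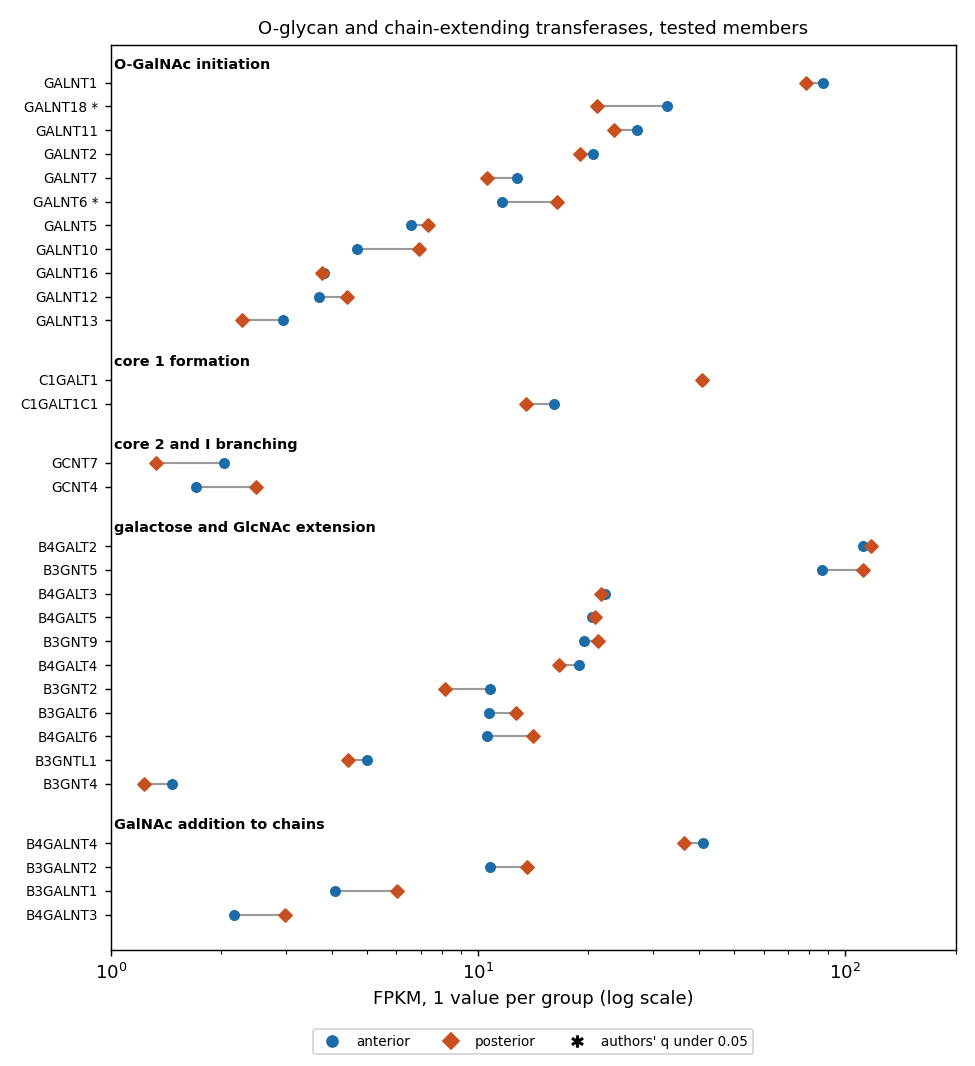
FPKM on a log axis for tested transferases of O-glycan initiation, core formation and chain extension, 1 row per gene, with anterior as blue circles and posterior as orange diamonds and a grey line between them. Stars mark GALNT18 and GALNT6, the 2 genes of this set at q under 0.05, and C1GALT1 shows both values at about 41 FPKM.

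Chains are extended by galactose and N-acetylglucosamine transferases, of which 11 of 17 rows were tested and 0 were called in either direction. Over all tested rows 7.07% were called, so few or none would be called among 11 at that share. The authors' deposited table has 3 with unadjusted p under 0.05, where all tested rows gave 16.1%. They were B4GALT6, B3GNT5 and B3GNT2. B4GALT6, a lactosylceramide synthase of glycolipids, had anterior and posterior levels of 10.6 and 14.1 FPKM (the authors' deposited table gives q = 0.0813). B3GNT5, which starts the lacto series of glycolipids, was among the highest of all transferases at 86.6 and 112 FPKM (log2 ratio 0.37, the authors' deposited table gives q = 0.105). It shares its locus with MCF2L2, at 0.565 and 0.773 FPKM. These 2 glycolipid enzymes had ratios above 0. B3GNT2, a main enzyme of poly-N-acetyllactosamine chains, was at 10.8 and 8.13 FPKM (the authors' deposited table gives q = 0.212). B4GALT2, which transfers galactose to N-acetylglucosamine, had the highest level of the group, 112 and 118 FPKM (the authors' deposited table gives q = 0.892). B4GALT5, the other lactosylceramide synthase, was at 20.4 and 20.9 FPKM, a log2 ratio of 0.03. B3GALT6 belongs to the linker of proteoglycans and was at 10.7 and 12.7 FPKM (the authors' deposited table gives q = 0.73). The row named B4GALT3 lies 798 bases from B4GALT4, where RefSeq on assembly GRCg7b has a gene named B4GALTL, so its name is uncertain. It was at 22.2 and 21.7 FPKM. B4GALT1, which the table names CKI, was at 11.6 and 14.0 FPKM (the authors' deposited table gives q = 0.533) and is outside the name rule. B3GALT1, B3GALT2, B3GALT4, B3GALT5, B3GNT3 and B3GNT7 were not tested. Only B3GALT5 of these reached 1 FPKM, at 1.11 and 0.673.

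N-acetylgalactosamine is added to chains by 4 members, and 0 passed the threshold in either direction, where 7.07% of all tested rows did. The authors' deposited table has 1 with an unadjusted p under 0.05, where all tested rows gave 16.1%. B4GALNT4, which makes the GalNAc-capped LacdiNAc unit, was at 41.0 FPKM in anterior against 36.5 FPKM in posterior. Its relative B4GALNT3 was at 2.16 and 2.98 FPKM (the authors' deposited table gives q = 0.287). B3GALNT1, the globoside synthase, was at 4.07 and 6.03 FPKM, and B3GALNT2, which acts on O-mannose glycans of dystroglycan, at 10.8 and 13.6 FPKM. The 3 lower ones had ratios above 0 and the highest a log2 ratio of -0.17.

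The sialyltransferases held 1 call among 16 tested, toward posterior, where 3.57% of all tested rows were called in that direction. These enzymes move sialic acid to galactose, to N-acetylgalactosamine or to another sialic acid, and 16 of 18 rows were tested. ST3GAL1, which caps the galactose of core 1 and so hides the peanut lectin site, was at 8.63 FPKM in anterior against 13.2 FPKM in posterior (1.53-fold, log2 ratio 0.61, the authors' deposited table gives q = 0.0326). It lies on chromosome 2 from 141665331 to 141689879, overlaps no other row, and was the only sialyltransferase called. ST3GAL2, which caps the same disaccharide on glycoproteins and gangliosides, had the highest level of its family, 39.8 and 40.4 FPKM (log2 ratio 0.02, the authors' deposited table gives q = 0.977). The summed FPKM of both was thus carried mainly by the gene with the smaller ratio. ST3GAL3, ST3GAL4 and ST3GAL6, which act on N-acetyllactosamine, were at 19.8 and 21.0, 11.7 and 9.11, and 32.8 and 27.8 FPKM. ST3GAL5, the GM3 synthase at the entry to gangliosides, was at 4.89 and 6.35 FPKM (the authors' deposited table gives q = 0.387).

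Enzymes that place sialic acid on carbon 6 of the acceptor sugar gave 0 calls among 6 tested, where 7.07% of all tested rows were called. The authors' deposited table has 1 with an unadjusted p under 0.05, where all tested rows gave 16.1%. ST6GALNAC4, which adds a further sialic acid to sialylated core 1, was at 5.49 FPKM in anterior against 9.12 FPKM in posterior (1.66-fold, log2 ratio 0.73, the authors' deposited table gives q = 0.0751). It had the lowest q among transferases that were not called. ST6GALNAC6 lies 459 bases away and was at 8.34 and 10.2 FPKM (the authors' deposited table gives q = 0.664). ST6GALNAC3, the highest of the family, was at 13.6 and 11.8 FPKM. ST6GALNAC2 was at 2.36 and 1.75 FPKM and its neighbour ST6GALNAC1, which caps the initiating GalNAc, at 0.362 and 0.400 FPKM without a test. ST6GAL1 and ST6GAL2, which act on N-glycans, were at 1.40 and 2.04 and at 8.56 and 9.92 FPKM. ST6GALNAC5, named SIAT7E in the table and outside the name rule, was at 5.97 and 4.32 FPKM (the authors' deposited table gives q = 0.349).

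Enzymes that join sialic acids to each other split in sign without passing the threshold. In the authors' deposited table all 4 tested members have an unadjusted p under 0.05 and 0 have q under 0.05. Over all tested rows, the share at that unadjusted p was 16.1% and the share at that q was 7.07%. ST8SIA2 and ST8SIA4 make polysialic acid on the adhesion molecule NCAM. ST8SIA2 was at 11.7 FPKM in anterior against 15.8 FPKM in posterior (log2 ratio 0.43, the authors' deposited table gives q = 0.196), and ST8SIA4, on chromosome Z, at 4.22 and 5.81 FPKM (log2 ratio 0.46, the authors' deposited table gives q = 0.134). ST8SIA1 and ST8SIA5 act on gangliosides, with ST8SIA1 known as GD3 synthase. ST8SIA1 was at 19.6 and 14.5 FPKM (log2 ratio -0.43, the authors' deposited table gives q = 0.233) and ST8SIA5, also on chromosome Z, at 4.46 and 2.76 FPKM (log2 ratio -0.69, the authors' deposited table gives q = 0.241). The polysialic acid pair had ratios above 0 and the ganglioside pair below 0, a grouping made after the values were seen. NCAM1, the carrier, was at 78.1 and 78.6 FPKM (the authors' deposited table gives q = 0.989). ST8SIA6 was at 0.568 and 1.19 FPKM and was not tested.

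**Figure D3:**
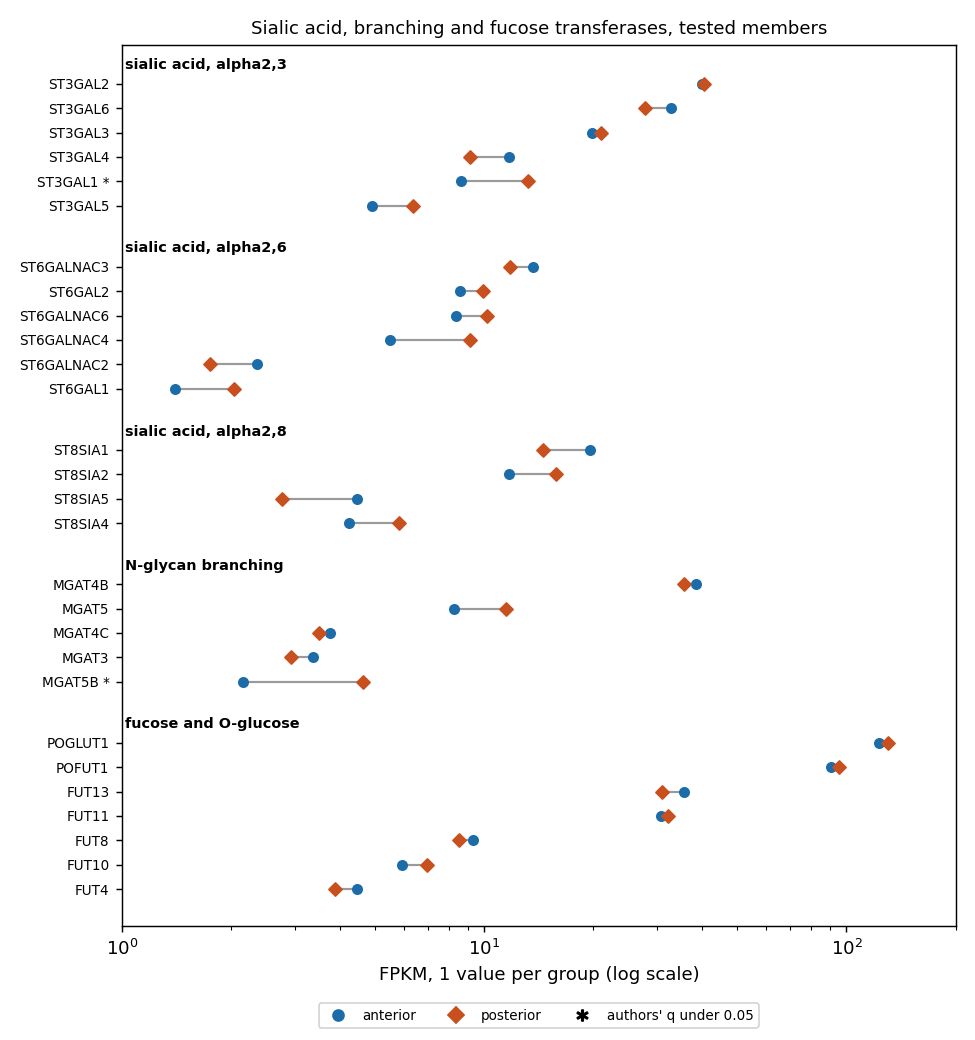
FPKM on a log axis for tested sialyltransferases, N-glycan branching enzymes and fucose or O-glucose transferases, 1 row per gene, with anterior as blue circles and posterior as orange diamonds. Stars mark ST3GAL1 and MGAT5B, the 2 genes of this set at q under 0.05, and the widest gap is that of MGAT5B, from 2.15 to 4.61 FPKM.

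N-glycans are branched by MGAT enzymes, of which 5 of 6 rows were tested, 1 was higher in posterior and 0 in anterior. The shares over all tested rows were 3.57% and 3.50%, so 1 call among 5 is too few to compare. MGAT5B, which adds branching N-acetylglucosamine to O-mannose glycans and N-glycans and is best known from brain, was at 2.15 FPKM in anterior against 4.61 FPKM in posterior (2.14-fold, log2 ratio 1.10, the authors' deposited table gives q = 0.00139). This was the largest ratio among the 58 tested transferases, at a low level. It lies on chromosome 18 from 4139174 to 4184210 and overlaps no other row. MGAT5, its relative that makes the same branch on N-glycans, was at 8.26 and 11.5 FPKM (log2 ratio 0.48, the authors' deposited table gives q = 0.108). MGAT4B, which adds another antenna, had the highest level, 38.3 and 35.5 FPKM, with a log2 ratio of -0.11. MGAT3, the bisecting enzyme, was at 3.36 and 2.92 FPKM. MGAT4C has 2 rows. The tested one, on chromosome 26, was at 3.76 and 3.49 FPKM and shares its locus with TMEM9. The other, on chromosome 1, is listed at 0 in both groups. It shares 0 of its 10 nearest named genes with RefSeq MGAT4C on GRCg7b, against 7 for the tested row, so its name is uncertain.

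Transferases of fucose and of O-glucose gave 0 calls among 7 tested, and the authors' deposited table has 0 with an unadjusted p under 0.05. All tested rows gave 7.07% and 16.1%, so with 7 genes few or none would be called at those shares. POFUT1 and POGLUT1 put fucose and glucose on EGF repeats such as those of Notch. POGLUT1 had the highest level of all transferases, anterior 123 and posterior 130 FPKM (log2 ratio 0.07, the authors' deposited table gives q = 0.886), and POFUT1 was at 90.7 and 95.3 FPKM (log2 ratio 0.07, the authors' deposited table gives q = 0.902). FUT13, whose neighbours in the table flank POFUT2 in RefSeq on GRCg7b, was at 35.7 and 30.9 FPKM. FUT8, which adds the core fucose of N-glycans, was at 9.33 and 8.51 FPKM, and FUT4, an enzyme of Lewis x structures, at 4.44 and 3.87 FPKM. FUT11 was at 30.7 and 32.2 FPKM and FUT10, on chromosome Z, at 5.93 and 6.95 FPKM. Log2 ratios of all 7 lay between -0.21 and 0.23, the narrowest range of the groups with over 2 tested members.

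**Figure D4:**
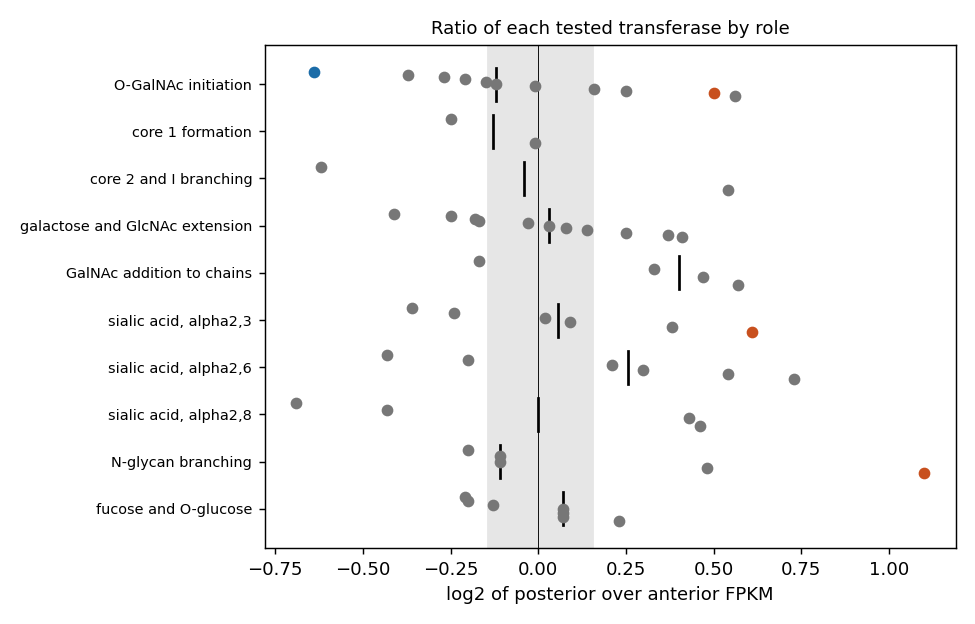
Log2 ratio of posterior over anterior FPKM for the 58 tested transferases, 1 point per gene and 1 line of points per role, with a black bar at each role's median and a grey band from -0.14 to 0.16, the quartiles of all tested rows. Coloured points are the 4 calls, orange for posterior and blue for anterior, and 3 of the 10 roles hold them.

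The 17 untested transferases were all at or under 1.19 FPKM in both groups, and 15 of them were under 1 FPKM in both. They say nothing about a difference. Besides those named above they were GALNT3, GALNT9, GALNT14, GALNT15 and GALNTL6. Of 5 transferases on chromosome Z, 4 were tested and 0 called, where all tested rows gave 7.07%, with 3 ratios above 0 and 1 below.

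Genes that supply and use these enzymes were read from 12 lists of other glycan genes. Among 69 different tested genes, the authors' deposited table has 9 calls, 7 toward posterior and 2 toward anterior, which is a share of 13% where all tested rows gave 7.07%. Of the 9, 3 came from a list of carrier proteins with only 4 tested genes, given below. Donor supply held few calls. Of 5 genes that make and carry activated sialic acid, the authors' deposited table has 0 called and 0 with unadjusted p under 0.05, with log2 ratios from -0.03 to 0.29. The 6 fucose supply genes likewise gave 0 at both thresholds there. Among 12 genes of galactose and N-acetylhexosamine supply, 1 was called, GFPT2 of the hexosamine pathway, higher in anterior at 48.4 and 36.1 FPKM (the authors' deposited table gives q = 0.029). Among 6 tested genes for other sugars on EGF repeats, 1 was called toward anterior, 2 toward posterior and 3 were not past the threshold. LFNG, which extends O-fucose on Notch, was higher in anterior at 81.0 and 32.0 FPKM (the authors' deposited table gives q = 0.00139). GXYLT1 and GXYLT2, which add xylose to the glucose placed by POGLUT1, were higher in posterior at 38.0 and 51.8 and at 30.1 and 43.3 FPKM (the authors' deposited table gives q = 0.0257 and 0.0284). In glycolipid synthesis, UGCG, the glucosylceramide synthase upstream of B4GALT5 and B4GALT6, was higher in posterior at 14.5 and 22.1 FPKM (the authors' deposited table gives q = 0.00261), the 1 call of 6 tested. Neither B4GALT5 (log2 ratio 0.03) nor B4GALT6 (0.41) was called. MAN2A1, an N-glycan trimming mannosidase, was the 1 call of 9 processing genes, at 19.3 and 26.9 FPKM (the authors' deposited table gives q = 0.00577). UGCG and MAN2A1 lie on chromosome Z.

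A list of mucin-type glycan carriers and mucins, which also held NCAM1, gave 3 posterior and 0 anterior calls among 4 tested. Over all tested rows, 3.57% were called toward posterior and 3.50% toward anterior. CD34 was at 8.59 and 17.8 FPKM, PODXL, which encodes podocalyxin, at 20.3 and 32.0 FPKM (the authors' deposited table gives q = 0.00139 for both), and EMCN, which encodes endomucin, at 10.8 and 15.6 FPKM (the authors' deposited table gives q = 0.0244). These sialomucins are known from endothelium, whose 10 tested markers had a median log2 ratio of 0.67. Of these markers, 7 were called toward posterior and 3 were not past the threshold. The latter were PECAM1 (log2 ratio -0.03), KDR (0.02) and TEK (0.37). The part of endothelium in the 3 sialomucin calls was not tested. NCAM1, given above as the carrier of polysialic acid, was the tested gene of this list that was not called. PDPN, which encodes podoplanin, was not tested and was at 0.740 FPKM in anterior against 0.0993 FPKM in posterior. Mucins MUC4, MUC6, MUC13 and MUC16 had no test, and both of their values stayed under 1 FPKM. Among 2 tested sialidases, 5 tested glycan-binding lectins, 11 O-mannose genes and 2 genes of O-GlcNAc cycling, the authors' deposited table has 0 calls, and 1 sialidase and 1 O-mannose gene there have an unadjusted p under 0.05. Related transferases of other names also gave no call among 3 tested, of which A4GALT and POMGNT1 are already counted in the glycolipid and O-mannose lists.

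**Figure D5:**
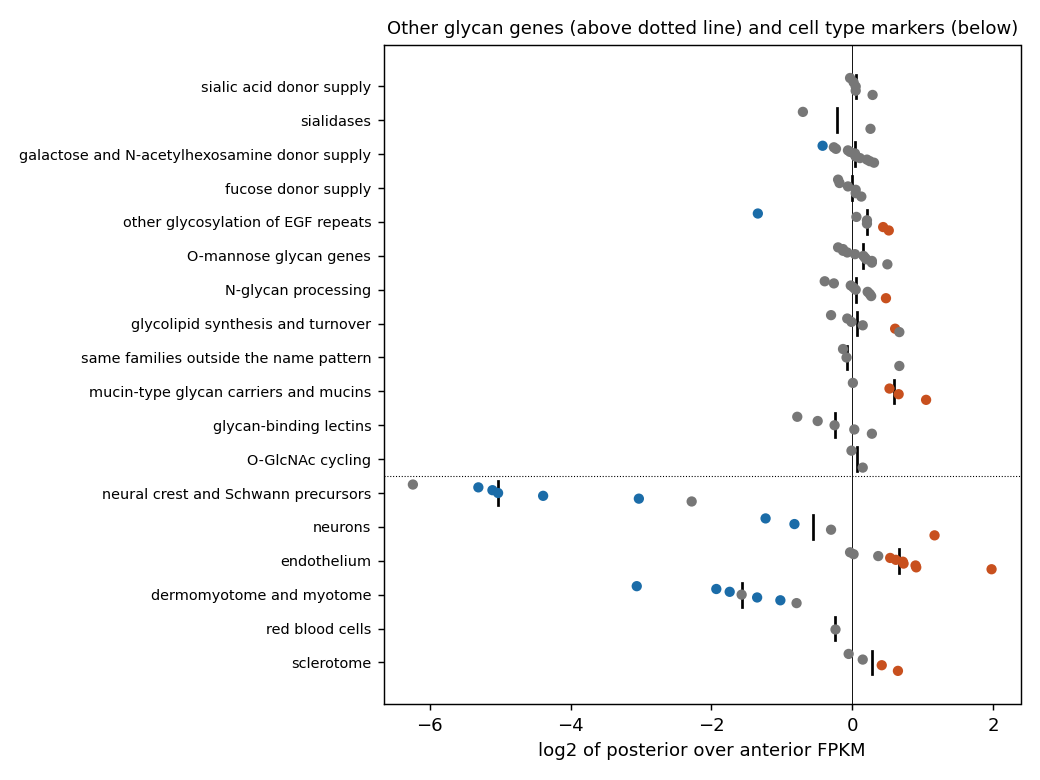
Log2 ratio of posterior over anterior FPKM for tested genes of the 12 other glycan lists (above the dotted line) and of 6 cell type marker lists (below), 1 point per gene, black bars at medians. Orange and blue points are genes higher in posterior and in anterior at the authors' q under 0.05; crest markers reach a log2 ratio of -6.24 and endothelium markers have a median of 0.67.

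The pools held other cells besides sclerotome, and their markers moved with the groups. Of 7 tested neural crest and Schwann precursor markers, 5 were called toward anterior and 0 toward posterior, none is listed at 0, and their summed level was 197 FPKM in anterior against 11.1 FPKM in posterior. Dermomyotome and myotome markers were higher in anterior in 5 of 7 tested, with sums of 78.4 and 32.6 FPKM. Neuron markers gave 2 anterior calls, TUBB3 and RET, and 1 posterior call, DCX, among 4 tested, with sums of 99.4 and 72.8 FPKM. TUBB3, at 64.4 and 36.4 FPKM, made up most of the anterior sum, and DCX was at 9.38 and 21.2 FPKM. ELAVL4 was not past the threshold (log2 ratio -0.30). The untested STMN2, ISL1, NEFM and NEFL were higher in anterior but at or under 1.45 FPKM in both groups. Endothelium markers were higher in posterior in 7 of 10 tested, with sums of 101 and 153 FPKM. Sclerotome markers gave 2 posterior calls among 4 tested, with sums of 658 and 805 FPKM. The calls were PAX1, at 367 and 490 FPKM, which made up most of both sums, and PAX9, at 42.1 and 66.3 FPKM. FOXC2 (185 and 179 FPKM) and SOX9 (62.9 and 69.7 FPKM) were not past the threshold. Of red blood cell genes, only HBG1 was tested, at 512 and 434 FPKM (the authors' deposited table gives q = 0.401), and HBZ is listed at 0 in both groups. These counts use q under 0.05 in the authors' deposited table. The sums cover every listed gene with a row, so those of neurons and of dermomyotome and myotome include untested genes. GALNT18 moved in the direction of the crest and muscle sums, and MGAT5B, GALNT6 and ST3GAL1 in that of the endothelium and sclerotome sums. The neuron sum was also higher in anterior, and DCX was the only neuron marker higher in posterior. The part of these cells in the 4 calls was not tested. In such pools, fewer cells of a type and less RNA per cell cannot be told apart.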

How the data were processed

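RNA of pooled half-sclerotomes was poly(A)-selected, made into stranded libraries and read as 50 base single-end reads, per the labels' protocols. Cuffdiff, Cufflinks 2.2.1, TopHat2 2.1.0, FastQC and the build galGal4 are listed, with no order or purpose, in the submitters' processing notes. Per the file headers, which are those of Cuffdiff, the authors combined the 3 libraries of each group into 1 FPKM. A p-value and a q-value of the comparison are deposited beside it. Annotation release, strand setting and normalization: not given in the sources used here. The table holds no counts and no value per library, so the depth is unknown, and no counting interval could be given. FPKM depends on how libraries were scaled, on transcript length and on how reads of overlapping or similar genes were divided.

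The ratio was computed here as log2 of posterior over anterior FPKM with no pseudocount (Python 3.11.15, pandas 2.3.3). No test of libraries could be run, so calls are the authors' q under 0.05. The deposited q matched a Benjamini-Hochberg adjustment of p over the 10529 tested rows to within 5.27e-07, and the adjustment was checked on simulated data. The lowest p, 5e-05, was shared by 380 rows, which cannot be ranked by it. Loci are those of the table, with starts made 1-based by adding 1 (the table counts from 0). Of 75 transferase rows, 72 had a RefSeq entry of the same symbol on GRCg7b, used for names only, and 70 of these shared at least 2 of the 10 nearest named genes with it. Of the 58 tested transferases, 8 share a locus with another row. Named were all called transferases, C1GALT1 and C1GALT1C1, and the highest of each role. The 10 next by q and untested ones of at least 1 FPKM were named too. Others of a role were added, but chain extension was not named in full. Transferases, roles and lists were chosen with earlier results of these data known, so their counts are descriptions and no set test was made. Alternatives were other q thresholds, a minimum ratio, a minimum mean FPKM, loci of their own, pseudocounts, centring, added family members and leaving out chromosome Z.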

Additional observations from a re-analysis of the deposited data

How the results depend on the processing

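The 4 calls among 58 tested transferases became 2 at q under 0.01, GALNT18 and MGAT5B, with 1 posterior and 1 anterior. At that threshold 4.71% of all tested rows were called. At q under 0.1 there were 6 calls among the 58, 5 posterior and 1 anterior, with ST6GALNAC4 and B4GALT6 added. In either direction, 9.12% of all tested rows were called. Leaving out rows that share a locus, or adjusting over rows with a locus of their own, left 0 anterior calls, because GALNT18 shares its locus with a row listed at 0 and so was left out. The median log2 ratio of 0.03 became 0.02 when centred on all tested rows. It was 0.02 with family members of other names added and 0.01 without chromosome Z, both alternatives chosen after seeing the data. The other alternatives kept each count within 1.5 times and the median at 0.03. For 24 named and tested transferases, 72 log2 ratios were recomputed with pseudocounts of 0.1 or 1 FPKM or with centring. All kept their direction. A pseudocount added to both groups cannot change a direction, and the median subtracted in centring rounded to 0.00. All 24 calls were the same when adjusted over rows with a mean of at least 1 FPKM. That setting kept 10514 of the 10529 tested rows, so q could hardly move. These counts therefore say little about how firm the calls are. No paired analysis was possible because the table gives 1 value per group and no value per library. Leaving out 1 library at a time could not be done for the same reason. Depth is unknown, so a small difference in a gene of low FPKM may not have been detectable.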
